A study of Mus musculus with 9 samples.

Results

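Mouse embryonic stem cells were sequenced in 9 RNA-seq libraries, and the 3 that carry replicate number 2 were compared with the 6 that carry number 1 or 3. The members were chosen by that number alone, 1 library from each of 3 genotypes, and genotype was kept as a covariate. The question was which pathways varied together by replicate number once genotype was accounted for. What the number stands for (a culture, a passage, a day or an extraction) is not in the labels, nor is whether separate cultures were used. The p-values therefore reflect variation among these 9 libraries alone, and that variation may be technical.

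The study addressed YAP and TAZ, the transcriptional co-activators of the Hippo pathway. Control cells had floxed alleles of both genes (Yap f/f Taz f/f), Taz KO cells had lost Taz and kept floxed Yap (Yap f/f Taz Δ/Δ), and double KO cells had lost both (Yap Δ/Δ Taz Δ/Δ). These names follow the titles and descriptions, while the genotype field of the double KO libraries repeats that of Taz KO. A Cre-ERT2 transgene under the CAG promoter was brought in by piggyBac transposition and activated with 500 nM 4-OHT. That dose is listed alike for all libraries, control included. The labels do not say separately whether control cells received the transgene or the 4-OHT, or how many clones each group holds. All cells grew on fibronectin in N2B27 medium with 4 ng/ml Lif, 0.4 µM of the MEK inhibitor PD0325901 and 3 µM of the GSK3 inhibitor CHIR99021, a mixture called 2i/Lif.

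Embryonic stem cells divide fast and keep a high output of ribosomes, proteasomes and mitochondrial proteins. MYC is a known driver of such output, though the level of Myc itself, given below, was low in these libraries. GSK3 inhibition holds beta-catenin active, so genes such as Notum and Sp5 report Wnt-type signalling, while MEK inhibition keeps the feedback genes of the FGF/ERK pathway low. Lysosomes break down cell material and are controlled by TFEB and TFE3, which bind E-box-like motifs in lysosomal gene promoters and respond to nutrients through mTORC1, and Txnip is a gene induced by glucose through MondoA and by starvation through FOXO factors.

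The values are FPKM, fragments per kilobase of gene length scaled by sequencing depth, and the 11674 genes with a mean of at least 1 FPKM were tested. Libraries held 19.14 to 23.99 M recovered reads. The replicate 2 libraries held 21.56 M (control), 22.11 M (Taz KO) and 22.06 M (double KO), between the other libraries in control and Taz KO, and the shallowest library of each genotype was replicate 3. Yap1 (chromosome 9, 7931999 to 8004596 on GRCm38) was at 18.13, 18.092 and 19.104 FPKM in control replicates 1, 2 and 3, at 18.571, 17.945 and 18.514 in Taz KO and at 4.142, 3.978 and 4.62 in double KO, so the Yap label held in each replicate number. Wwtr1, the gene of TAZ, was at 12.4, 12.7 and 11.1 FPKM in control, 11.6, 9.03 and 11.9 in Taz KO and 14.7, 13.2 and 13.9 in double KO. The sum over a whole gene does not show the loss of an exon, so Wwtr1 does not check the Taz deletion. The stem cell factor gene Sox2 was at 169 to 236 FPKM in all 9 libraries.

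The largest spread within genotypes ran between replicate 2 and replicate 3. After each genotype's mean was subtracted, the first principal component held 63% of the remaining variance. Its scores were -1.01, 15.04 and -14.03 for control replicates 1, 2 and 3, -7.61, 25.54 and -17.93 for Taz KO, and -10.1, 26.8 and -16.7 for double KO. Replicate 2 was thus at 1 end in all 3 genotypes, replicate 3 at the other, and control replicate 1 lay near the middle.

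**Figure D1:**
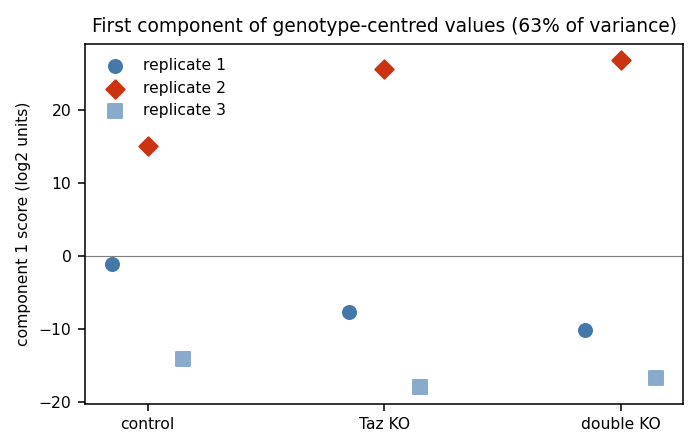
Score of each of the 9 libraries (y axis, log2 units) on the first principal component of log2(FPKM + 0.5) after subtraction of the genotype mean, by genotype (x axis). Each point is 1 library; the replicate 2 libraries (diamonds) sit at 15.04, 25.54 and 26.8, above every other library.

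Tested with limma on log2(FPKM + 0.5), 5324 genes (45.6% of those tested) differed between replicate 2 and the mean of replicates 1 and 3 at an adjusted p under 0.05, 1939 (16.6%) higher and 3385 (29.0%) lower. Most differences were small. At least 1.5-fold higher were 402 genes (3.44%) and at least 1.5-fold lower 243 (2.08%). Only 72 genes (0.617%) were at least 2-fold higher and 33 (0.283%) at least 2-fold lower. Replicate 2 lay outside both other libraries in the same direction in all 3 genotypes for 5005 of the 5324 genes called. Over all genes tested it was above both in every genotype for 19.6% and below both for 31.8%, 51.4% together. The median difference over all genes was -0.05 on the log2 scale. Without Taz KO replicate 2 the counts were 890 higher and 2027 lower, and without double KO replicate 2 the higher count was 1251.

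The balance between higher and lower depended on how the libraries were scaled. The deposited values are scaled by size factors, under which the typical gene is held level across libraries, and on that scale 36.4% of the genes called were higher in replicate 2. That share was 47.1% after quantile normalization, 56.9% after scaling to library totals, which moved the median of all genes to 0.035, and 24.8% among genes with a mean of at least 5 FPKM. The difference also moved with expression level. In the lowest quartile of genes by mean FPKM the median difference was 0.11, with 25.2% of genes higher and 7.61% lower, and in the top quartile it was -0.17, with 8.19% higher and 54.1% lower. The part of expression level in the lists described below was not tested.

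A fit with all 3 replicate numbers split the contrast. Replicate 2 differed from replicate 1 in 4123 genes (35.3%), with 12.2% of all genes higher and 23.1% lower. It differed from replicate 3 in 5481 genes (47.0%), with 17.7% higher and 29.3% lower. Replicates 1 and 3 differed from each other in 18 genes (0.154%), 11 higher in replicate 1 (0.0942%) and 7 lower (0.06%), a count that ranged from 2 to 70 when 1 library was left out and reached 177 in a fit of those 6 libraries alone. Among the 18 were Nqo1, Mt3, Tcf15, Calb2 and Abcc8, named here after their values were seen. The 2 contrasts with replicate 2 share its libraries, so their counts are not independent.

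The biology of replicate 2 is described below by 53 gene lists with 1047 genes, of which 860 were tested: 112 of these were higher and 359 lower. Over all genes tested 16.6% were higher and 29.0% lower, and in the top expression quartile 8.19% and 54.1%. Falls were found in genes of protein production and turnover, in chaperones, in nuclear genes of mitochondria and in Wnt target genes. Rises were found in lysosomal genes, genes linked to glucose, extracellular matrix and immediate early genes.

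**Figure D2:**
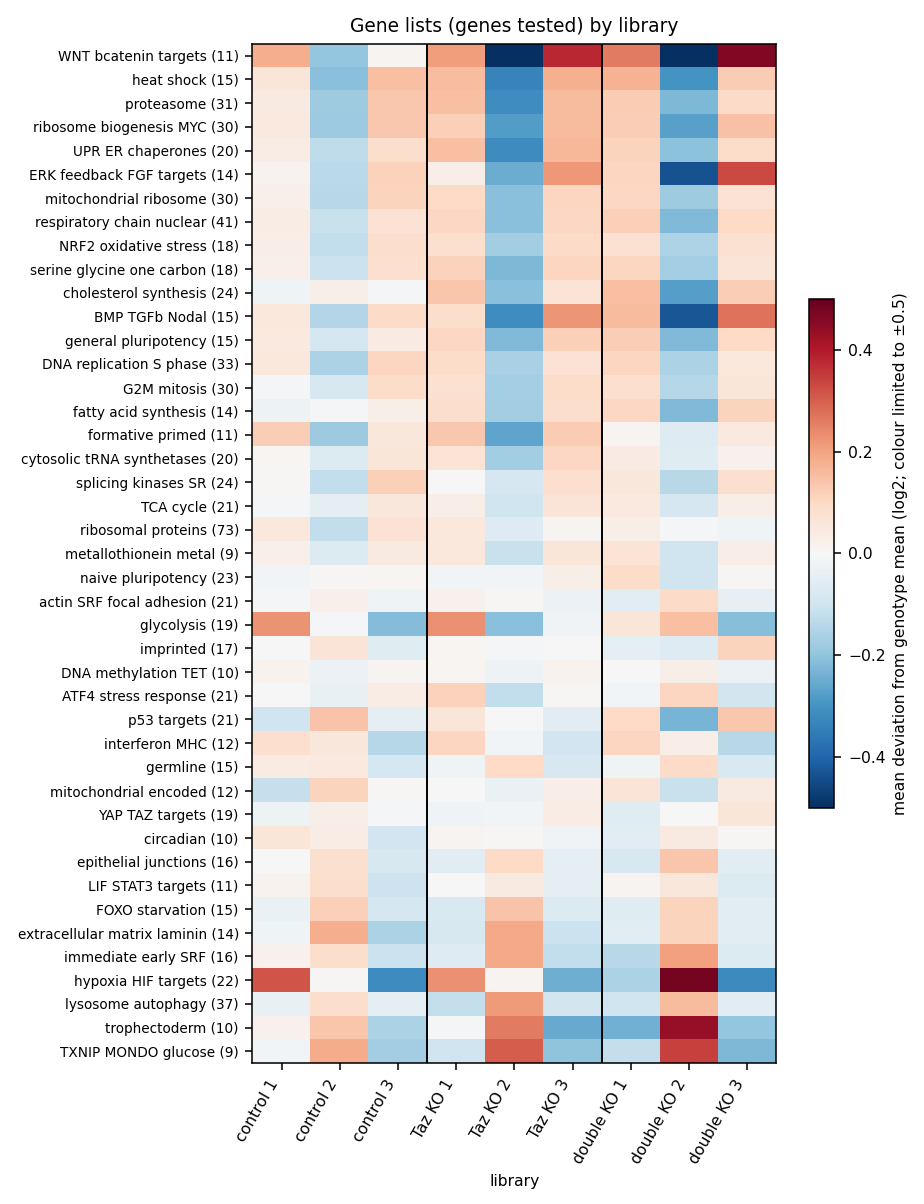
Mean deviation of each gene list from its genotype mean (colour, log2 units, limited to ±0.5) in each of the 9 libraries (x axis), for lists with 9 or more genes tested (y axis, number tested in brackets), ordered by the median replicate 2 difference. The middle column of each genotype block is replicate 2: it is blue for the proteasome in all 3 (-0.176, -0.309 and -0.223) and red for the lysosome list (0.086, 0.211 and 0.157).

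Genes of ribosome production were lower in replicate 2. Of 30 tested genes of ribosome biogenesis and MYC targets, 28 were lower and 0 higher, with a median difference of -0.36, and the list median was -0.29 (control), -0.42 (Taz KO) and -0.39 (double KO). Odc1 (chromosome 12, 17544794 to 17551505), the rate-limiting enzyme of polyamine synthesis and a classic MYC target, was at 230, 172 and 230 FPKM in control replicates 1, 2 and 3, at 230, 133 and 220 in Taz KO and at 165, 104 and 163 in double KO. In each genotype replicate 2 was the lowest library and the other 2 lay close together. The difference was -0.61 (SE 0.06, adjusted p = 0.000743). Nop16, a nucleolar protein of large subunit assembly, fell by 0.56 (adjusted p = 0.000743) and was at 18.3 to 30.3 FPKM in replicate 2 against 27.4 to 42.1 elsewhere. Myc itself was at 1.14, 0.664 and 1.57 FPKM in control, 1.18, 0.528 and 1.62 in Taz KO and 1.01, 0.384 and 1.28 in double KO, lowest in replicate 2 each time (-0.81, adjusted p = 0.00237). The genes not called were Polr1a (-0.17), the large subunit of RNA polymerase I, and Nop14 (-0.07).

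The cytosolic ribosomal proteins behaved otherwise. Of 73 tested, 25 were lower and 0 higher, a share of 34.2% beside 54.1% in the top expression quartile. Their median was -0.10 on the deposited scale, -0.01 under scaling to library totals, where 2 were higher and 2 lower, and 0.04 after quantile normalization, where 15 were higher and 1 lower. Their direction is thus not fixed by these data. By genotype the median was -0.19 (control), -0.10 (Taz KO) and -0.01 (double KO), and the count of lower genes was 5 without Taz KO replicate 2, 11 without control replicate 2, 14 without replicate 1 of Taz KO or of double KO and 16 without control replicate 3. Rpl27 was at 214, 179 and 224 FPKM in control, 209, 170 and 212 in Taz KO and 163, 141 and 162 in double KO (-0.27, adjusted p = 0.00138). Cytosolic tRNA synthetases, which load amino acids onto tRNAs, had 12 of 20 lower and 0 higher with a median of -0.15, and this median turned to 0.02 after quantile normalization, where 3 were higher and 1 lower. The share of synthetases lower was 60%, beside 54.1% in the top expression quartile, and their lower count was 4 without Taz KO replicate 2. Aars, the alanine enzyme, fell by 0.27 (adjusted p = 0.00617).

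Proteasome subunits fell almost as a whole. Of 31 tested genes 30 were lower and 0 higher, with a median of -0.37 and genotype medians of -0.29, -0.46 and -0.35 in control, Taz KO and double KO. Psmd7 (chromosome 8, 107580381 to 107588464), a lid subunit of the 19S cap, was at 140, 111 and 163 FPKM in control, 187, 122 and 195 in Taz KO and 138, 92.7 and 136 in double KO (-0.55, SE 0.06, adjusted p = 0.000791). Every replicate 2 library was below both others of its genotype. The ATPase subunits Psmc1 and Psmc4 fell by 0.53 and 0.48 (adjusted p = 0.000923 and 0.000792). The subunit not called was Psmd8, at 124, 125 and 121 FPKM in control, 116, 98.9 and 112 in Taz KO and 102, 110 and 94.1 in double KO, without a common direction. The count of lower subunits was 24 after quantile normalization, with 1 higher, and 27 under scaling to library totals.

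Chaperones fell in the cytosol and in the endoplasmic reticulum. Of 15 heat shock genes tested, 12 were lower and 0 higher (median -0.43). Hspa8 (chromosome 9, 40800984 to 40810087), the constitutive HSC70 chaperone, was at 392, 271 and 421 FPKM in control, 402, 183 and 412 in Taz KO and 396, 199 and 392 in double KO, a difference of -0.90 (SE 0.09, adjusted p = 0.000743). Its 3 replicate 2 values were below all 6 others. Hsph1 and Dnaja1, co-chaperones of HSP70, fell by 0.88 and 0.83 (adjusted p = 0.000749 and 0.000743). Not called were Hsf1 (-0.12), the heat shock transcription factor, Hsp90aa1 (-0.01) and Bag3 (0.19).

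Among 20 genes of the unfolded protein response and folding in the endoplasmic reticulum, 12 were lower and 0 higher (median -0.35). Hspa5 (chromosome 2, 34771970 to 34777547), which encodes the chaperone BiP, was at 147, 109 and 159 FPKM in control, 149, 60.9 and 152 in Taz KO and 108, 52.8 and 101 in double KO, again lowest in replicate 2 (-0.92, SE 0.12, adjusted p = 0.00108). Hsp90b1 and the disulfide isomerase Pdia6 fell by 0.69 and 0.65 (adjusted p = 0.000873 and 0.00125). The regulators Xbp1 (-0.09) and Atf6 (0.12) were not called.

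Nuclear genes for mitochondria were lower, and those encoded in the mitochondrion were mostly not called. Of 41 nuclear respiratory chain genes, 36 were lower and 0 higher (median -0.26), and of 30 mitochondrial ribosome genes 25 were lower and 0 higher (median -0.27). Cycs (chromosome 6, 50562563 to 50566538), which encodes cytochrome c, was at 13.1, 10.9 and 15.9 FPKM in control, 15.4, 8.43 and 16.8 in Taz KO and 14, 6.64 and 14.2 in double KO (-0.77, SE 0.11, adjusted p = 0.00144). All 3 replicate 2 values were below the 6 others. Ndufa5 of complex I fell by 0.62 (adjusted p = 0.00107), and Mrpl12, a protein of the mitochondrial large ribosomal subunit, was at 26 to 49.3 FPKM in replicate 2 and fell by 0.65 (adjusted p = 0.000749).

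The respiratory chain count depended on scaling, with 12 lower and 4 higher after quantile normalization and 26 lower and 0 higher under library totals. Of 12 genes of the mitochondrial genome only mt-Nd1 was lower (-0.21) and 0 were higher, with a median of 0.21 (control), -0.03 (Taz KO) and -0.16 (double KO). Without control replicate 2 the lower count was 3 and the overall median -0.09, without control replicate 1 the count was 2, and without control replicate 3 or any 1 knockout library it was 0. As a share of all reads, mitochondrial genes took 4.45% in control replicate 2 against 3.57% and 3.74% in its replicates 1 and 3, 4.25% against 3.93% and 3.91% in Taz KO, and 4.86% against 4.82% and 4.64% in double KO. That share was highest in replicate 2 in each genotype, and its part in the results was not tested. In the tricarboxylic acid cycle 9 of 21 enzymes were lower and only Idh2 (0.28) was higher; the malate dehydrogenases Mdh1 and Mdh2 fell by 0.39 and 0.36 (adjusted p = 0.00228 and 0.00185). The share of these enzymes lower, 42.9%, lay between 29.0% over all genes and 54.1% in the top expression quartile. The list median of -0.10 turned to 0.07 after quantile normalization.

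Genes of redox control and one-carbon metabolism were mostly lower too. Of 18 NRF2 and oxidative stress genes 13 were lower, and only Ftl1 (0.26), the ferritin light chain, was higher. Sod1, the cytosolic superoxide dismutase, was at 648, 498 and 625 FPKM in control, 652, 397 and 615 in Taz KO and 505, 331 and 464 in double KO (-0.53, adjusted p = 0.000899), so replicate 2 was lowest in each genotype. Nqo1, a quinone reductase, fell by 0.48 (adjusted p = 0.019), and its replicates 1 and 3 also differed. The gene of NRF2 itself, Nfe2l2, was not called (0.09). After quantile normalization 6 of these genes were lower and 2 higher, and without Taz KO replicate 2 the lower count was 8 and Ftl1 was not called.

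Of 18 serine, glycine and one-carbon genes, 11 were lower and 0 higher (median -0.25). The share lower, 61.1%, stands beside 29.0% over all genes and 54.1% in the top expression quartile. Under quantile normalization or library totals 7 were lower and 1 higher. Mat2a, which makes S-adenosylmethionine, was at 97.3, 72 and 110 FPKM in control, 112, 70.8 and 131 in Taz KO and 120, 72.4 and 129 in double KO (-0.69, adjusted p = 0.000791). Its replicate 2 values lay between 70.8 and 72.4 and the others between 97.3 and 131. Ahcy, of the methionine cycle, fell by 0.54 (adjusted p = 0.000851). Without Taz KO replicate 2 the lower count was 6.

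Cell cycle and splicing genes fell by smaller steps. The share lower was 63.6% in S phase and 63.3% in mitosis. It was 29.0% over all genes and 54.1% in the top expression quartile. Of 33 genes of DNA replication and S phase, 21 were lower and 0 higher (median -0.21), with nearly equal genotype medians of -0.23, -0.21 and -0.24. Ccne1 (chromosome 7, 38097984 to 38107534), cyclin E1, was at 27.2, 20 and 27.4 FPKM in control, 27.9, 16.1 and 30.3 in Taz KO and 16.3, 9.32 and 15.6 in double KO, where replicate 2 was lowest each time (-0.67, SE 0.07, adjusted p = 0.000791). Of 30 genes of G2 and mitosis 19 were lower and only Hmmr (0.18) higher; the survivin gene Birc5 fell by 0.39 (adjusted p = 0.000793) and Cenpa, a centromeric histone, by 0.39 (adjusted p = 0.00228). Quantile normalization left 12 lower in S phase, with 2 higher, and 9 lower in mitosis, with 3 higher. Hmmr was not called without Taz KO replicate 2. Ccnd1, cyclin D1, was at 37.4, 26.6 and 42.2 FPKM in control, 41.9, 20.8 and 46.6 in Taz KO and 22, 7.33 and 24.5 in double KO (-1.08, adjusted p = 0.00133). It was lowest in replicate 2 of each genotype and is named here after its values were seen.

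Of 24 genes of SR splicing factors and their kinases, 12 were lower and 0 higher (median -0.13). The share lower, 50%, lay between 29.0% over all genes and 54.1% in the top expression quartile. Srsf3, an SR protein of the spliceosome, was at 89.9, 64.7 and 104 FPKM in control, 97.6, 58.6 and 106 in Taz KO and 92.3, 57.5 and 91.6 in double KO (-0.68, adjusted p = 0.000743). Its replicate 2 values lay below the 6 others. Srsf2 and Srsf10 fell by 0.43 and 0.40 (adjusted p = 0.000743 and 0.000941). Quantile normalization gave 6 lower and 4 higher, and the lower count was 7 without control replicate 3, Taz KO replicate 3 or double KO replicate 1.

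Lipid synthesis genes differed in replicate 2 of the knockout groups more than in control replicate 2. With 1 replicate 2 library per genotype, that contrast was not tested for a list. Of 24 cholesterol synthesis genes 10 were lower (41.7%) and 0 higher, beside 29.0% lower over all genes and 54.1% in the top expression quartile. Their median was 0.08 (control), -0.31 (Taz KO) and -0.41 (double KO). Fdps, farnesyl diphosphate synthase, was at 152, 140 and 146 FPKM in control, 149, 92.1 and 123 in Taz KO and 88.2, 53.8 and 78.4 in double KO (-0.42, adjusted p = 0.011). The lower count of this list was 2 without Taz KO replicate 2, 3 without double KO replicate 2 and 19 without control replicate 2, so single libraries decided it. It was 4 after quantile normalization and 6 under library totals. Of 14 fatty acid genes 8 were lower and only Elovl1 (0.21) higher, and under quantile normalization or library totals 5 were lower and 3 higher. Acaca, acetyl-CoA carboxylase, and Fasn, fatty acid synthase, fell by 0.59 and 0.48 (adjusted p = 0.00258 and 0.00379), and the lower count was 4 without Taz KO replicate 2 and 5 without double KO replicate 2, and Elovl1 lost its call without control replicate 2. Among 4 genes of sterol efflux and LXR, Apoe, Mylip and Abcg1 were higher and Nr1h2, the LXR beta gene, was lower (-0.34). Apoe, a lipid carrier, was at 858, 1071 and 785 FPKM in control, 798, 1354 and 860 in Taz KO and 1298, 1545 and 1254 in double KO (0.46, adjusted p = 0.00252), highest in replicate 2 of each genotype. Leaving out replicate 1 or 2 of double KO gave a higher count of 2.

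**Figure D3:**
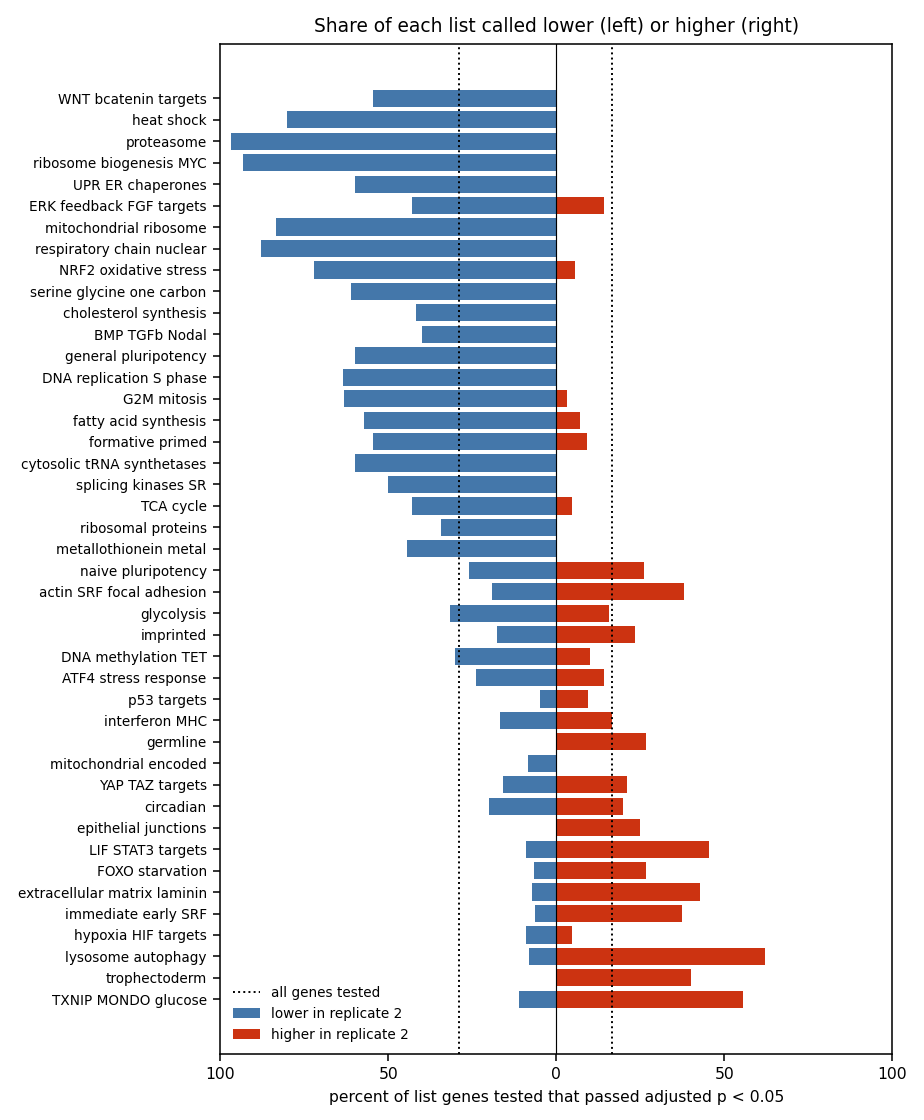
Share of the tested genes of each list (y axis) that passed an adjusted p under 0.05 and were lower (bars to the left) or higher (bars to the right) in replicate 2, in percent. Dotted lines mark the shares over all 11674 genes tested, 29.0% lower and 16.6% higher; the proteasome reached 96.8% lower and the lysosome list 62.2% higher.

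Signalling target lists differed in direction. Of 11 Wnt/beta-catenin targets 6 were lower and 0 higher (median -0.57). The list median was -0.11 (control), -0.65 (Taz KO) and -0.91 (double KO). Notum (chromosome 11, 120653788 to 120661175), a secreted enzyme that inactivates Wnt ligands, was at 28.5, 14.1 and 32 FPKM in control, 33.1, 11.3 and 34.9 in Taz KO and 47.4, 15.9 and 46.5 in double KO. The replicate 2 values were the lowest of all 9 libraries, and the difference was -1.38 (SE 0.09, adjusted p = 0.000546), a 2.61-fold fall.

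Sp5 (chromosome 2, 70474923 to 70477729), a transcription factor that acts downstream of beta-catenin, was at 10.7, 6.75 and 8.71 FPKM in control, 11, 2.22 and 14.8 in Taz KO and 18.2, 3.82 and 25.1 in double KO (-1.70, SE 0.32, adjusted p = 0.00348). Replicate 2 was lowest in each genotype, with a smaller gap in control. T, the Brachyury gene of the primitive streak, was at 5.63, 3.33 and 4.58 FPKM in control, 5.60, 1.28 and 7.31 in Taz KO and 8.59, 1.32 and 12.2 in double KO (-1.69, adjusted p = 0.00344). The other lower members were Ccnd1, Lef1 and Tnfrsf19. Axin2, a common readout of beta-catenin activity, was at 17, 15.8 and 16.2 FPKM in control, 15.2, 13.7 and 17.5 in Taz KO and 25.4, 20.8 and 32.3 in double KO, below both others each time, but was not called (-0.25, adjusted p = 0.0539). The lower count was 4 without Taz KO replicate 2.

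Targets of FGF/ERK signalling went both ways. Of 14 tested, 6 were lower and 2 higher (Spry2 at 0.26 and Ets2 at 0.33). Etv4, an ETS factor induced by ERK, was at 1.39, 0.669 and 1.78 FPKM in control, 3.07, 0.798 and 4.94 in Taz KO and 2.07, 0.350 and 2.82 in double KO (-1.46, adjusted p = 0.00145). Spry4, a feedback inhibitor, fell by 1.58 (adjusted p = 0.00176) from levels of 0.722 to 4.09 FPKM in replicates 1 and 3. The lower count of the list was 3 without replicate 2 of Taz KO or of double KO, and the higher count was 1 without Taz KO replicate 3, double KO replicate 2 or control replicate 2 or 3. Of 15 genes of BMP and Nodal signalling 6 were lower and 0 higher. Lefty1, a Nodal antagonist, was at 17.2, 8.70 and 26.7 FPKM in control, 23.2, 9.42 and 33 in Taz KO and 28.1, 12.0 and 36.5 in double KO (-1.38, adjusted p = 0.000851). Its replicate 2 values were below all 6 others. The BMP targets Id1 and Id3 fell by 1.20 and 1.15 (adjusted p = 0.00273 and 0.000861).

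LIF/STAT3 targets moved the other way. Of 11 tested, 5 were higher and only Gbx2 was lower (-0.63). Klf4, a naive pluripotency factor, was at 196, 232 and 177 FPKM in control, 178, 210 and 170 in Taz KO and 118, 153 and 100 in double KO (0.36, adjusted p = 0.00345). Tfcp2l1, another factor of the naive state, was at 130, 171 and 132 FPKM in control, 126, 168 and 126 in Taz KO and 137, 148 and 124 in double KO (0.33, adjusted p = 0.00211). Replicate 2 was highest in each genotype for both genes. The higher count was 2 without double KO replicate 2 and 3 without Taz KO replicate 3, control replicate 2 or control replicate 3. Gbx2 lost its call without Taz KO replicate 2 or 3 or double KO replicate 1 or 2. Immediate early genes had 6 of 16 higher, among them Maff (0.96), Zfp36 (0.60) and Jun (0.60), and only Ier2 lower (-0.51). Jun, an AP-1 subunit, was at 1.64, 2.84 and 1.84 FPKM in control, 1.01, 2.52 and 1.54 in Taz KO and 16.6, 25.8 and 21.9 in double KO. The replicate 2 value was thus highest in each genotype, and the higher count was 4 without Taz KO replicate 2, Taz KO replicate 3 or any 1 double KO library.

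Pluripotency genes did not move as 1 block. Of 23 naive genes 6 were higher and 6 lower. Tbx3, Klf4, Tfcp2l1, Klf5, Fbxo15 and Esrrb were higher, and Dppa3, Gbx2, Dppa4, Manba, Dppa2 and Zfp42 lower. Manba, on the naive list, encodes a lysosomal enzyme and was not on the lysosome list described below. Tbx3, a T-box factor, was at 41.3, 53 and 43.1 FPKM in control, 35.8, 54.9 and 36.3 in Taz KO and 45.6, 52.7 and 42.2 in double KO (0.40, adjusted p = 0.00206). Dppa3, a maternal factor marked in naive cells, was at 39.6, 29.6 and 41.3 FPKM in control, 63.4, 34.4 and 70.7 in Taz KO and 96.2, 53.5 and 97.6 in double KO (-0.75, adjusted p = 0.000861). Replicate 2 was above both others for the first and below both for the second in every genotype. The lower count of naive genes was 3 without replicate 2 of Taz KO or of double KO. Of 15 general pluripotency genes 9 were lower and 0 higher, among them L1td1 (-0.63) and Tdh (-0.40). The share of this list lower, 60%, stands beside 29.0% over all genes and 54.1% in the top expression quartile. Sox2 was not called (0.05). The lower count was 5 without Taz KO replicate 2, and after quantile normalization 6 were lower and 3 higher. Of 11 formative and primed genes 6 were lower and only Krt18 higher; Zic2, a factor of that state, was at 17.7, 10.4 and 17.7 FPKM in control, 24.4, 13.1 and 24.9 in Taz KO and 28.9, 18.9 and 27.3 in double KO (-0.73, adjusted p = 0.000743).

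**Figure D4:**
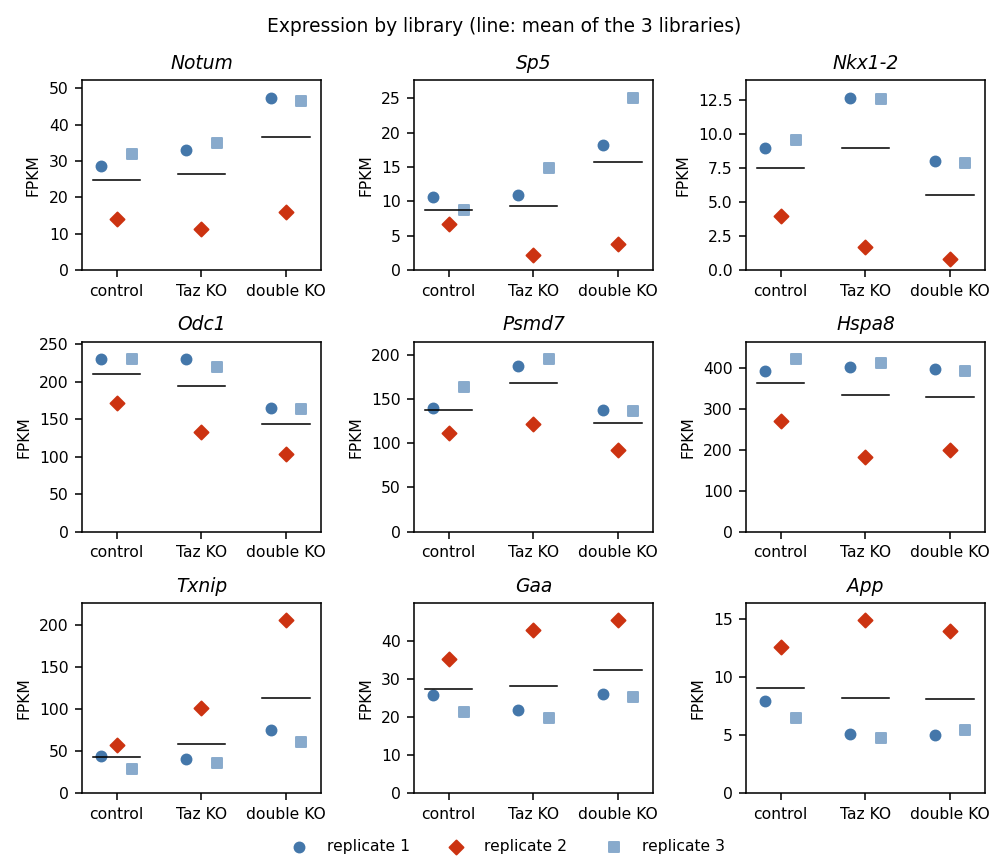
FPKM (y axis, starting at 0) of 9 genes in each library by genotype (x axis); points are libraries, coloured by replicate number, and lines are the mean of the 3 libraries of a genotype. The replicate 2 diamond is below both other libraries in every genotype for Notum, Sp5, Nkx1-2, Odc1, Psmd7 and Hspa8, and above both for Txnip, Gaa and App.

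The lysosome list had the highest count of rises. Of 37 genes of lysosomes and autophagy 23 were higher and 3 lower (62.2% and 8.11%), with a median of 0.25 overall and of 0.16, 0.36 and 0.22 in control, Taz KO and double KO. Gaa (chromosome 11, 119267887 to 119285454), the acid alpha-glucosidase that breaks down glycogen in lysosomes, was at 25.9, 35.2 and 21.4 FPKM in control, 21.9, 42.9 and 19.7 in Taz KO and 26.2, 45.4 and 25.3 in double KO (0.80, SE 0.09, adjusted p = 0.000828). The lowest replicate 2 value was above the highest of the 6 others. Gpnmb, a lysosomal and melanosomal glycoprotein, rose by 0.88 (adjusted p = 0.0224) and was at 0.916, 1.63 and 1.57 FPKM in control, 0.784, 2.03 and 1.09 in Taz KO and 7.36, 29.8 and 14.1 in double KO. Wipi1, an autophagosome protein, rose by 0.57 (adjusted p = 0.00608).

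The genes of the factors that control this set were lower. Tfeb was at 9.04, 7.04 and 9.90 FPKM in control, 9.53, 6.67 and 10 in Taz KO and 9.86, 7.93 and 9.72 in double KO (-0.40, adjusted p = 0.00134), and Tfe3 fell by 0.24 (adjusted p = 0.0091). Replicate 2 was the lowest library of each genotype for both. The third lower member, the proton pump subunit Atp6v1h (-0.16), turned to 0.02 after quantile normalization, where 28 of the 37 genes were higher and 2 lower. Under library totals 27 were higher and 2 lower, and without Taz KO replicate 2 the counts were 16 and 1.

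Promoters of the lysosome genes were searched because TFEB and TFE3 bind a motif that holds the E-box CACGTG. The promoter windows come from RefSeq on GRCm38.p6 and run from 250 bases before to 50 bases after a start site. Of the 37 genes 31 matched, with 38 promoters, and 28.9% of these (11) held CACGTG, which is its own reverse complement. The share was 10.6% over promoters of the genes tested and 7.15% over all 32851 promoters. In all, 6 motifs were searched in promoters of 7 lists, on both strands, and this pair was singled out after the shares were seen. The shorter motif ACGTG lies within every E-box and was in 39.5% of the lysosome promoters and 26.3% of those of genes tested. The 11 holders included 4 genes that were not called (Lamp1, Gla, Fnip1 and Atp6v0d1), and a match is a description of letters in this window. The shares were taken over list members whatever their call, so they describe the list and not replicate 2. Whether holders rose more than the other members was not tested. The 250 bases before the start site of 3 holders are shown, since these genes were higher in replicate 2; capitals mark CACGTG.
Gaa: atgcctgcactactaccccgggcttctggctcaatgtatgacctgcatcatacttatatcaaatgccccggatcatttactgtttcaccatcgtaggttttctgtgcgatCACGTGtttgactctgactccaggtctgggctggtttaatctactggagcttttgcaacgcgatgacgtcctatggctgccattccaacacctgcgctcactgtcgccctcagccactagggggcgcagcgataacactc
Atp6v1a: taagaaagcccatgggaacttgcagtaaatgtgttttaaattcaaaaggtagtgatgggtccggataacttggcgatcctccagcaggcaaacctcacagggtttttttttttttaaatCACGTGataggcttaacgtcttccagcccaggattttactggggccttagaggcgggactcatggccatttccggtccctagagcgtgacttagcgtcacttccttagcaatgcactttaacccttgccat
Ctsd: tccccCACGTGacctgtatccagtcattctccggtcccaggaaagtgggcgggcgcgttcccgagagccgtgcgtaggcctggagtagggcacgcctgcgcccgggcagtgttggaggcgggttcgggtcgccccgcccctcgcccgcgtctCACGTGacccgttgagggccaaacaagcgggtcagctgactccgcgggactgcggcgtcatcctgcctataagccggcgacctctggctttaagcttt
The Gaa sequence is chr11:119267713-119267962 on the plus strand, with its motif starting at position -140 from the start site. That of Atp6v1a, a proton pump subunit, is chr16:44139260-44139509 on the minus strand, with the motif at -131. That of Ctsd, the protease cathepsin D, is chr7:142387828-142388077 on the minus strand, with the motif at -245 and -98. Atp6v1a was at 51.2, 62.5 and 51.2 FPKM in control, 44.5, 67.1 and 43.4 in Taz KO and 46.7, 57.7 and 45.6 in double KO (0.40, adjusted p = 0.00154). Ctsd was at 136, 156 and 131 FPKM in control, 131, 161 and 122 in Taz KO and 200, 228 and 193 in double KO (0.26, adjusted p = 0.00231). Replicate 2 was the highest library of each genotype for both, which are named after their values were seen.

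Genes linked to glucose rose as well. Of 9 tested, 5 were higher (Txnip, G6pc3, Arrdc4, Pdk4 and Klf10) and Mlx, a partner of MondoA, was lower (-0.23). These shares, 55.6% and 11.1%, stand beside 16.6% and 29.0% over all genes. The list mixes the regulators Mlx and Mlxip with other genes, so its count is not one of MondoA targets alone. Txnip (chromosome 3, 96557957 to 96561883), an arrestin-like protein that limits glucose uptake, was at 44, 57.8 and 28.2 FPKM in control, 40.2, 101 and 35.3 in Taz KO and 74.6, 205 and 61 in double KO (1.24, SE 0.18, adjusted p = 0.00146). Replicate 2 was highest in each genotype. Arrdc4, a related arrestin, was at 10, 11.8 and 7.64 FPKM in control, 9.60, 15.2 and 7.68 in Taz KO and 8.85, 15.2 and 8.24 in double KO (0.67, adjusted p = 0.00213). Of 15 FOXO and starvation genes 4 were higher (Pik3ip1, Bcl6, Insr and Foxo3) and Foxo4 was lower (-0.28). Pik3ip1, an inhibitor of PI3K, rose by 0.64 (adjusted p = 0.00188), and Insr, the insulin receptor gene, by 0.45 (adjusted p = 0.00298). Without double KO replicate 2 Mlx and Foxo4 were not called, and Foxo4 was not without Taz KO replicate 2.

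Glycolysis and hypoxia genes had no common direction. Of 19 glycolysis genes 3 were higher (Hk1, Slc2a3 and Pfkm) and 6 lower, 15.8% and 31.6% beside 16.6% and 29.0% over all genes, with medians of -0.04, -0.39 and 0.10 in control, Taz KO and double KO. The list mean stood at 0.22 and 0.23 above the genotype mean in replicate 1 of control and Taz KO, and the median of replicate 1 minus replicate 3 was 0.26. Eno1, an enolase, was at 364, 287 and 278 FPKM in control, 323, 198 and 288 in Taz KO and 210, 168 and 183 in double KO (-0.33, adjusted p = 0.0382), so control replicate 2 was not its lowest library. After quantile normalization 4 were higher and 1 lower, and the lower count was 2 without Taz KO replicate 2 and 3 without Taz KO replicate 3 or double KO replicate 1, and the higher count was 1 without replicate 2 of Taz KO or of double KO. Of 22 hypoxia genes only Vegfa was higher and Higd1a and Kdm3a lower, 4.55% and 9.09%, both below the share over all genes. Vegfa, a blood vessel growth factor, was at 18.8, 17.3 and 8.71 FPKM in control, 10, 19.4 and 5.04 in Taz KO and 4.88, 28.1 and 3.61 in double KO (1.47, adjusted p = 0.0167). Its replicate 2 value was highest in both knockout groups and between the others in control. Vegfa lost its call without replicate 2 of Taz KO or of double KO, and it was chosen after its values were seen. The higher count of the list was 3 without control replicate 1 and 2 without control replicate 2 or Taz KO replicate 1, and the lower count was 1 without replicate 2 of double KO or of control.

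ATF4 stress genes had 3 of 21 higher (Cebpb, Nupr1 and Ddit3) and 5 lower (Slc7a3, Mthfd2, Trib3, Psat1 and Atf4), near the shares over all genes. Slc7a3, a cationic amino acid transporter, was at 31.2, 23.4 and 35.3 FPKM in control, 29.8, 14.8 and 29.5 in Taz KO and 16.9, 7.67 and 13.3 in double KO (-0.80, adjusted p = 0.00108), lowest in replicate 2 each time. The lower count was 1 without Taz KO replicate 2, 2 without Taz KO replicate 1 or control replicate 3, 3 without Taz KO replicate 3 or double KO replicate 1, and 8 without double KO replicate 2. The higher count was 0 without replicate 2 of Taz KO or of double KO, 1 without Taz KO replicate 3 and 2 without double KO replicate 1. Of 21 p53 targets 2 were higher (Rrm2b and Pmaip1) and Bax was lower. The list median was 0.26 (control), 0.04 (Taz KO) and -0.38 (double KO). The lower count was 5 without control replicate 2 and 4 without control replicate 1, and the higher count was 1 without any 1 control library, Taz KO replicate 3 or replicate 1 or 3 of double KO.

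Adhesion and cytoskeleton genes were mixed. Of 14 extracellular matrix and laminin genes 6 were higher and Col18a1 was lower (-0.53). Fn1, fibronectin, was at 305, 383 and 267 FPKM in control, 291, 472 and 266 in Taz KO and 330, 455 and 297 in double KO (0.58, adjusted p = 0.00108), with every replicate 2 value above the 6 others. Tinagl1, a matrix protein of low level here, rose by 1.47 (adjusted p = 0.00175). Without Taz KO replicate 2 the higher count was 3, and Col18a1 lost its call without replicate 2 of either knockout group. Leaving out control replicate 2 gave a higher count of 4. Of 21 actin and focal adhesion genes 8 were higher, led by Cnn2 (0.67), Tpm2 (0.57) and Zyx (0.50), and 4 lower. Actb, beta-actin, was at 719, 507 and 738 FPKM in control, 713, 421 and 758 in Taz KO and 712, 554 and 736 in double KO (-0.57, adjusted p = 0.000988). Its replicate 2 values were below the other 6, and this gene is often used as a reference. The higher count of the actin list was 4 without double KO replicate 2 and 5 without Taz KO replicate 2 or 3, and the lower count was 2 without Taz KO replicate 2.

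YAP/TAZ targets, the genes the study was built around, had 4 of 19 higher (F3, Myof, Amotl2 and Amotl1) and 3 lower (Igfbp3, Fjx1 and Birc5), 21.1% and 15.8%. The shares over all genes were 16.6% and 29.0%. In the quartile of genes with a mean of 3.715 to 9.2 FPKM, which holds the list median of 4.80 FPKM, they were 21.5% and 19.4%. Amotl2, which binds YAP, was at 20.1, 24.7 and 19.8 FPKM in control, 12.4, 14.8 and 13.0 in Taz KO and 5.25, 10.5 and 5.23 in double KO (0.48, adjusted p = 0.0109). F3, the tissue factor gene, was at 1.70, 3.15 and 2.14 FPKM in control, 1.12, 3.50 and 1.42 in Taz KO and 1.73, 5.30 and 2.85 in double KO (0.95, adjusted p = 0.00224). Replicate 2 was highest in each genotype for both. The lower count was 2 without replicate 2 of Taz KO or of double KO, and under library totals 7 were higher.

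Imprinted genes had 4 of 17 higher (H19, Igf2r, Igf2 and Sgce) and 3 lower (Mest, Nnat and Snrpn), 23.5% and 17.6% beside 16.6% and 29.0% over all genes. H19, a maternally expressed non-coding RNA, was at 2.39, 3.86 and 2.54 FPKM in control, 0.927, 1.65 and 0.757 in Taz KO and 1.76, 4.10 and 2.86 in double KO (0.66, adjusted p = 0.00397). Mest, which is paternally expressed, fell by 0.65 (adjusted p = 0.00228). Leaving out Taz KO replicate 2 gave a higher count of 2, and the lower count was 2 without replicate 2 or 3 of either knockout group. Of 10 genes of DNA methylation, Dnmt3b (-0.29), Tdg (-0.18) and Dnmt1 (-0.15) were lower and Apobec2 (0.51) higher. The share lower, 30.0%, is close to the 29.0% over all genes, and the lower count was 1 without double KO replicate 2 and 2 without replicate 2 or 3 of Taz KO, double KO replicate 3 or control replicate 3. Dnmt1 turned to 0.04 after quantile normalization. Of 9 metal-handling genes 4 were lower, led by Tfrc, the transferrin receptor gene (-0.61, adjusted p = 0.00125), and the lower count was 1 without replicate 2 of Taz KO or of double KO and 2 without Taz KO replicate 1, Taz KO replicate 3 or double KO replicate 1. Among nuclear non-coding RNAs, Neat1 (0.62) and Malat1 (0.55) were higher and Mir17hg (-0.76) and Snhg5 (-0.37) lower. The higher count was 0 without Taz KO replicate 2 and 1 without Taz KO replicate 3, double KO replicate 1 or 2, or control replicate 2 or 3.

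Markers of other cell types were looked at in the same libraries. In bulk RNA, fewer cells of a type and less RNA per cell cannot be told apart. Of 15 trophectoderm markers 10 were tested, and Krt7 (1.01), Krt18 (0.84), Gata2 (0.84) and Krt8 (0.32) were higher while 0 were lower. Krt18, a simple keratin, was at 7.04, 9.06 and 8.17 FPKM in control, 8.05, 12.6 and 5.79 in Taz KO and 7.40, 22.8 and 8.70 in double KO (adjusted p = 0.00883). The summed level of the 15 genes was 115 to 202 FPKM in replicate 2 and 102 to 156 in the other libraries. Of the factor genes on the list, Cdx2, Elf5, Gata3 and Hand1 were below 1 FPKM in all 9 libraries. Cdx2 was at 0 to 0.148 FPKM in replicate 2 and 0.081 to 0.744 elsewhere, and Hand1 at 0.0627 to 0.113 and 0 to 0.063. Tfap2a was at 1.77 to 2.48 FPKM in replicate 2 and 1.84 to 3.91 elsewhere, and was not called. Eomes (6.14 to 9.56 FPKM), Tfap2c (23.3 to 45.8), Tead4 (18.1 to 26.1) and Ascl2 (3.17 to 9.08) were expressed in every library, with replicate 2 inside those ranges. The higher count was 2 without Taz KO replicate 2, and the part of such cells in the result was not tested.

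Endothelial and blood markers summed to 45.1 to 62.1 FPKM in replicate 2 and 28.9 to 37.4 elsewhere, and 9 of 12 were below 1 FPKM in every library. Of 3 tested, Pecam1 (0.28) and Cd68 (1.17) were higher. Cd68, a lysosomal membrane protein used as a macrophage marker, was at 10.9, 18.4 and 9.14 FPKM in control, 7.65, 20.9 and 8.31 in Taz KO and 11.4, 29.8 and 12.1 in double KO (adjusted p = 0.000743), highest in replicate 2 each time. The defining blood and vessel genes Ptprc and Cdh5 did not exceed 0.0149 and 0.0105 FPKM, and Hbb-bs and Lyz2 were at 0 in all 9 libraries. The part of such cells in the result was not tested. Fibroblast markers summed to 408 to 489 FPKM against 304 to 357, nearly all of it Fn1; of 3 tested Fn1 and Thy1 were higher and Vim lower, with 1 higher without replicate 2 or 3 of Taz KO, double KO replicate 2 or control replicate 3, and Dcn, Lum, Postn, Prrx1 and Fap were at 0 in every library. Primitive endoderm markers summed to 215 to 370 FPKM in replicate 2 and 243 to 325 elsewhere, overlapping ranges, with Gata6, Sox17 and Foxa2 below 1 FPKM; of 6 tested only Gata4 was higher (0.55), and not without Taz KO replicate 2.

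For mesoderm the sums were 11.9 to 13.5 against 14.2 to 21.7 FPKM with T the only member called of 3 tested. For neuroectoderm they were 17 to 28.1 against 23.6 to 52.5 FPKM, with Tubb3 lower and Nes (0.18) higher. Of 15 tested germline genes 4 were higher (Sycp3, Mael, Stk31 and Ddx4) and 0 lower, with sums of 83.9 to 108 against 69.1 to 96.6 FPKM. The share higher, 26.7%, stands beside 16.6% over all genes and 25.2% in the lowest expression quartile. The median difference of this list was -0.008. Sycp3, a protein of the meiotic synaptonemal complex, was at 2.46, 4.39 and 2.12 FPKM in control, 2.83, 4.85 and 2.41 in Taz KO and 2.54, 5.78 and 2.1 in double KO (0.92, adjusted p = 0.000793), and its replicate 2 values were above all others. Without Taz KO replicate 2 the higher germline count was 2. Genes of the 2-cell-like state summed to 0.223 to 0.282 against 0.216 to 0.316 FPKM, and 0 were tested.

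The genes with the largest differences at a mean of at least 5 FPKM, outside both other libraries in every genotype, were of varied function. The 10 highest were Fxyd2, Sult5a1, Kdelr3, Gsn, Adssl1, S100a1, Txnip, App, Rgcc and Camk2n1, from 1.73 down to 1.18. Fxyd2 (chromosome 9, 45399669 to 45410278), a regulatory subunit of the sodium pump, was at 4.45, 7.42 and 2.69 FPKM in control, 3.41, 12.7 and 2.32 in Taz KO and 3.70, 14.3 and 1.94 in double KO (adjusted p = 0.00166). App, the amyloid precursor protein gene, was at 7.99, 12.6 and 6.52 FPKM in control, 5.08, 14.9 and 4.78 in Taz KO and 5.02, 14 and 5.44 in double KO (1.20, adjusted p = 0.000791). S100a1, a calcium-binding protein, was at 10.5, 19.6 and 14.2 FPKM in control, 12.0, 49.4 and 14 in Taz KO and 30.8, 91.1 and 31.6 in double KO. The gap between replicate 2 and the others was smaller in control than in both knockout groups for all 3 genes. Gsn, the actin-severing protein gelsolin, rose by 1.41, and Kdelr3, a receptor that returns proteins to the endoplasmic reticulum, by 1.49 (adjusted p = 0.00155 and 0.00148).

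The 10 lowest were Rps25-ps1, Nkx1-2, Enox1, Sp5, T, Foxd1, Vim, Notum, Lefty1 and Tubb3, from -2.85 up to -1.27. Rps25-ps1 is a pseudogene whose reads may be shared with its parent gene, and it was at 4.71 and 58.6 FPKM in control replicates 1 and 3, so its value is uncertain. Nkx1-2 (chromosome 7, 132594878 to 132599637), a homeobox gene of the caudal epiblast, was at 8.98, 4.02 and 9.58 FPKM in control, 12.7, 1.69 and 12.6 in Taz KO and 8.03, 0.806 and 7.87 in double KO (-2.13, SE 0.25, adjusted p = 0.000878). Replicates 1 and 3 lay close together in each genotype. Vim, vimentin of the intermediate filaments, was at 30.4, 17.9 and 37.6 FPKM in control, 23.1, 8.58 and 35.1 in Taz KO and 19.6, 7.19 and 35 in double KO (-1.46, adjusted p = 0.00181). Tubb3, a beta-tubulin, was at 18.8, 11.3 and 26.8 FPKM in control, 25.2, 11.9 and 33.7 in Taz KO and 36, 11.8 and 37.2 in double KO (-1.27, adjusted p = 0.000851). Its replicate 2 values stood at nearly the same level in all genotypes.

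The replicate 2 difference had its lowest median size in control. The median absolute difference over all genes was 0.151 (control), 0.231 (Taz KO) and 0.226 (double KO). Within 1 genotype, limma called 0 genes for control (0.0%), 3163 for Taz KO (27.1%) and 2759 for double KO (23.6%). At an unadjusted p under 0.05, 2678 genes (22.9%) passed in control. In Taz KO 8.46% of all genes were higher and 18.6% lower, and in double KO 6.76% and 16.9%. The test of the difference itself, the interaction of genotype with replicate 2, called 0 genes by limma (lowest adjusted p = 0.191), with 1348 (11.5%) at an unadjusted p under 0.05, and voom on the recovered reads also called 0. With 1 replicate 2 library per genotype this test has 3 residual degrees of freedom. A difference between genotypes in how replicate 2 deviated was thus not shown for any gene at this filter, and without a filter on low values 616 genes were called.

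**Figure D5:**
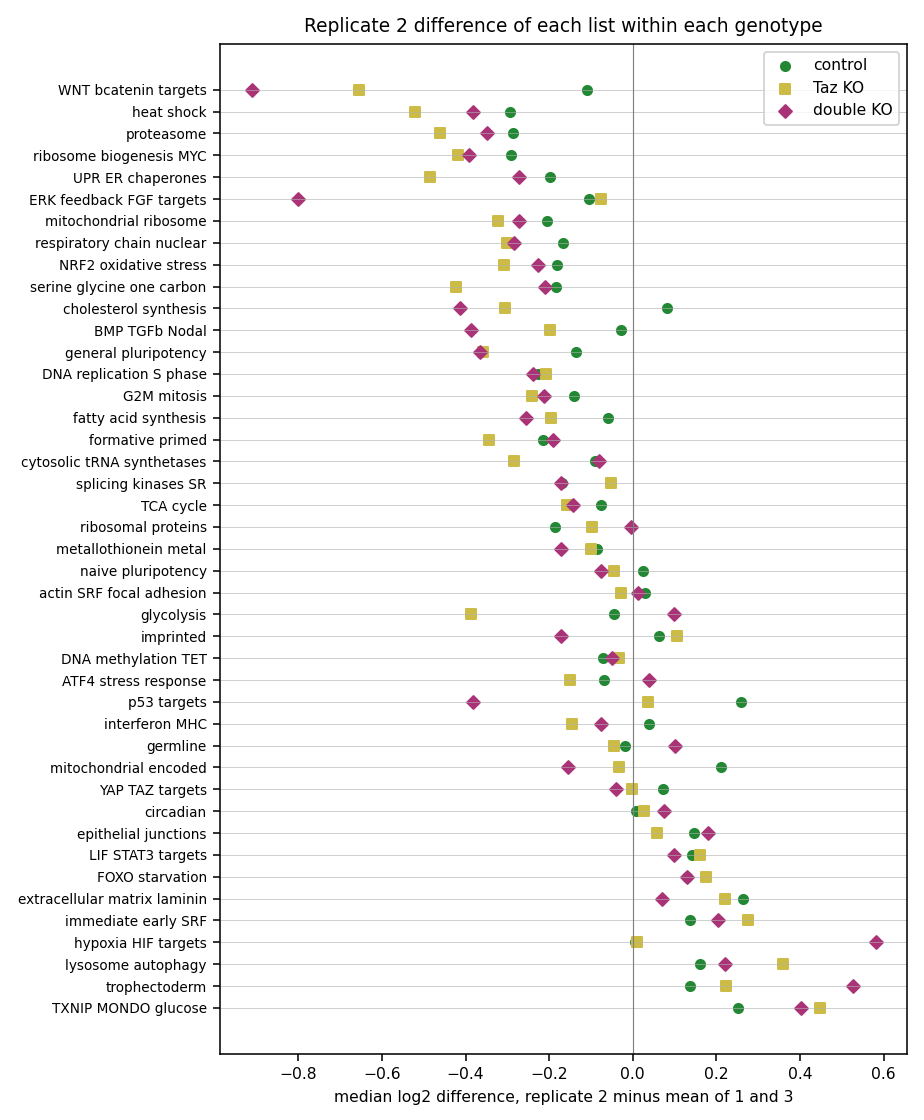
Median log2 difference of replicate 2 from the mean of replicates 1 and 3 (x axis) for each gene list (y axis) within control (circles), Taz KO (squares) and double KO (diamonds), 1 replicate 2 library each. Proteasome medians are -0.29, -0.46 and -0.35, and those of the Wnt list -0.11, -0.65 and -0.91.

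Every genotype has 1 library of each number, so a replicate 2 difference of equal size in all genotypes cancels between group means and adds to the spread within groups, and one of unequal size does not cancel. The comparison of double KO with control called 2948 genes from group means, and 5793 with a term for replicate 2. For Taz KO against control the counts were 150 and 1068. With all 3 numbers as a block they were 6112 and 1381.

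The replicate 2 difference also varied with gene class, chromosome, GC content and exon length. The GENCODE M21 annotation covered 94.4% of the genes tested. By it, 30 of 135 lincRNA genes were higher and 7 lower, and of 152 processed pseudogenes 8 were higher and 27 lower. Over all genes 16.6% were higher and 29.0% lower, so the balance among lincRNA genes was the reverse. In the lowest expression quartile 25.2% were higher and 7.61% lower, which is the same balance as among lincRNA genes. The part of expression level in the gene classes was not tested. Among chromosomes, 6 and 8 are given here after their values were seen. The median was -0.106 for genes of chromosome 6 and -0.116 for those of chromosome 8, beside -0.05 over all genes. On chromosome 6 it was -0.028 (control), -0.149 (Taz KO) and -0.169 (double KO). By GC content the median went from -0.092 in the lowest quartile to -0.005 in the highest, and by exon length from -0.092 in the shortest to -0.01 in the longest. The parts of GC content, length and chromosome in the lists above were not tested.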

How the data were processed

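The 9 libraries were made from 1 µg of poly(A)-selected RNA with a directional kit and sequenced on a NextSeq 500, per the labels' protocols. The authors deposited 1 table of FPKM values for 38940 genes. TopHat2 2.1.1, HTSeq 0.6.1, DESeq2 and the build mm10 are named in the submitters' processing notes, and for the annotation release and strand setting the sources used here give nothing. All 24621 genes with a value above 0 were whole multiples of a per-gene step (tolerance 0.001), which gave back whole reads and the scaling: each library's step was the inverse of a median-ratio size factor.

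The main test was limma 3.58.1 (R 4.3.3) on log2(FPKM + 0.5) with an intensity trend, for genes with a mean of at least 1 FPKM, with terms for genotype and for replicate 2, and Benjamini-Hochberg adjustment over all 11674 genes at a threshold of 0.05. A fit with 3 replicate numbers left 4 residual degrees of freedom and one with the interaction left 3. Scripts were tested on simulated data. The gene lists and members were chosen with earlier results of these data known, and no test of a list was made. Named genes were the 10 largest differences each way at a mean of at least 5 FPKM with replicate 2 outside both others in every genotype, the 3 largest called members of each list with at least 3 called in that direction, the first tested member of a list with none called, and Yap1 and Wwtr1. Other genes are named where a count was small or a control was needed, or were chosen after their values were seen. Some genes that the rule names are not reported here.

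Replicate numbers were checked for pairing: the correlation of deviations from the genotype means, over genes, was 0.192 to 0.423 between libraries numbered 1, 0.603 to 0.711 for number 2 and 0.57 to 0.63 for number 3, against -0.688 to 0.394 over the 18 pairs with different numbers. The pairing thus comes from the values, not from a stated batch. Alternatives were other pseudocounts, filters, quantile normalization, voom on the recovered reads, no variance trend, no genotype term, a replicate block and leaving out each library. Scaling to library totals was added after seeing the data. Coordinates and gene classes come from GENCODE M21 on GRCm38, matched by gene symbol.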

Additional observations from a re-analysis of the deposited data

Results flagged for a closer look

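For some lists the mean log2 difference of replicate 2 pointed one way in 1 genotype and the other way in another. There is 1 replicate 2 library per genotype, the difference between genotypes was not tested for a list, and the interaction test called 0 single genes at the filter used. For cholesterol synthesis the mean was 0.042, -0.312 and -0.413 (control, Taz KO, double KO). Genes of the mitochondrial genome had 0.166, -0.052 and -0.165 in the same order. CDK inhibitors and D cyclins had 0.041, -0.091 and -0.268, and imprinted genes 0.096, -0.011 and -0.096. In ATF4 stress genes the means were -0.058, -0.184 and 0.161, with double KO apart from the others. In DNA methylation genes they were -0.046, -0.039 and 0.046, each under 0.05 in size. For nuclear non-coding RNAs they were -0.161, 0.159 and -0.086. The 3 replication-dependent histone genes tested had 0.12, -0.227 and 0.401, and poly(A) selection captures such transcripts poorly.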

How the results depend on the processing

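The replicate 2 contrast kept more lower than higher genes except under scaling to library totals, added after seeing the data (2893 higher, 2195 lower). Without a genotype term 462 were higher and 824 lower, and at a mean of at least 5 FPKM 1032 were higher. Leaving out 1 library gave 890 to 1996 higher and 2027 to 3474 lower, 1343 to 4730 genes between replicates 2 and 1, 3475 to 5704 between 2 and 3, and 2 to 70 between 1 and 3. The last count was 4 with no filter, 9 with no variance trend, 29 with voom and 177 with only the 6 libraries, a fit in which replicates 2 and 1 differed in 2593 genes. Unfiltered, the interaction called 616. With the replicate block, double KO against control called 6112 genes and Taz KO against control 1381, and with a replicate 2 term 5793 and 1068. The block changed no other call among the 151 named genes. Quantile normalization turned Atp6v1h to 0.015 and Dnmt1 to 0.041. Named calls were lost for 95 genes without a genotype term, 20 with no filter, 18 with quantile normalization and 11 under library totals. Without Taz KO replicate 2, 33 were lost and without double KO replicate 2, 26, and 109 of 148 held in all 9 fits that left out 1 library. The cause was not tested. With 19.14 to 23.99 M reads, genes near 1 FPKM had the least precise values.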

Other observations

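Some gene groups stood near the share over all genes or held few members. Of 16 epithelial junction genes 4 were higher in replicate 2 and 0 lower: Cldn7 and Cldn4, claudins of tight junctions, Cgn, the tight junction protein cingulin, and Dsp, desmoplakin of desmosomes. Without double KO replicate 2 the higher count was 2. Of 12 interferon and MHC genes, B2m and H2-D1, which form the class I complex, were higher, and Ifitm3 and Irf9 lower. The higher count was 0 without Taz KO replicate 2 and 1 without replicate 2 or 3 of double KO or of control, and the lower count was 1 without Taz KO replicate 2 or 3, any 1 double KO library or control replicate 3. Of 10 circadian genes, Cry2 and Tef were higher and Nr1d2 and Arntl lower, with 1 higher without replicate 2 of Taz KO or of double KO and 1 lower without Taz KO replicate 2. Among 8 CDK inhibitor and D cyclin genes, Cdkn1b, the p27 inhibitor of the cell cycle, and Ccnd3 were higher and Ccnd1 lower. Neither rise was called without Taz KO replicate 1 or 2, double KO replicate 2 or any 1 control library, and 1 was without each of the other 3 libraries. Of 3 replication-dependent histone genes 0 were called by limma.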
